A study of Mus musculus with 10 samples.

Results

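The 10 genes described here are regulators and markers of the adipocyte, the alternative fate of cells that can become osteoblasts: Pparg, Cebpa, Cebpd, Zfp423, Ebf1, Fabp4, Cd36, Lpl, Adipoq and Plin1. They were chosen by name, and each matched 1 of the 23358 rows of the deposited gene table. The cells were MC3T3, a mouse calvarial pre-osteoblast line, so all libraries come from 1 established line. Every culture was kept in osteogenic medium (ascorbic acid plus beta glycerol phosphate). Cells were given vehicle or GSK126, which inhibits the histone methyltransferase EZH2, at 5 µM at the start and again 3 days later, and the compound was removed on day 6. The 6 RNA libraries are 1 for each treatment on day 3, day 6 and day 10, and H3K27me3, the repressive histone mark that EZH2 writes, was mapped by chromatin immunoprecipitation 24 hours after the first dose with 1 ChIP and 1 input library per treatment (4 libraries).

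In textbook adipogenesis, C/EBPβ and C/EBPδ (Cebpd) are induced first and switch on C/EBPα (Cebpa) and PPARγ (Pparg), which then maintain each other and the genes of the fat cell. The zinc-finger factor ZFP423 and the early B-cell factor EBF1 act upstream and mark or commit preadipocytes. The products of the terminal genes handle lipid: FABP4 binds fatty acids in the cytosol, CD36 takes up long-chain fatty acids, LPL releases them from lipoproteins, perilipin 1 (Plin1) coats the lipid droplet, and adiponectin (Adipoq) is a secreted hormone. In bone marrow stroma PPARγ favours fat over bone, which is why these genes are read beside an osteoblast programme.

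The cells carried the RNA of the upstream factors at moderate levels and almost none of the terminal genes. Cebpa, Cebpd, Zfp423 and Ebf1 had lower levels with GSK126 than with vehicle on each of the 3 days, by 1.24-fold to 1.5-fold in the fitted average, but none of the 4 passed the test across all genes. Fabp4, Cd36 and Pparg had higher counts with GSK126 on each day and remained at very low levels. Of all tested genes 22.1% were higher and 22.7% lower with GSK126 on all 3 days. Adipoq and Plin1 stayed at 0 to 4 counts in all 6 libraries. H3K27me3 islands lay over Cd36, Lpl and Adipoq in both treatments, and over 17.1% of all rows in vehicle and 14.8% with GSK126. None lay over the terminal genes Fabp4 and Plin1, the upstream factors or Pparg.

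The promoters of 7 of the 10 genes are in the RefSeq table used here (build GRCm38.p6), and 4 pieces of 250 bases, each ending just before an annotated start site, are printed with every CpG in capitals because these 4 genes differ in both RNA and island. Cebpa (chr7:35119043-35119292, + strand) and Zfp423 (chr8:87959596-87959845, - strand) were transcribed and had no island, whereas the pieces of Adipoq (chr16:23146286-23146535, + strand) and Cd36 (chr5:17835897-17836146, - strand) were met by an island in the vehicle list.
Cebpa: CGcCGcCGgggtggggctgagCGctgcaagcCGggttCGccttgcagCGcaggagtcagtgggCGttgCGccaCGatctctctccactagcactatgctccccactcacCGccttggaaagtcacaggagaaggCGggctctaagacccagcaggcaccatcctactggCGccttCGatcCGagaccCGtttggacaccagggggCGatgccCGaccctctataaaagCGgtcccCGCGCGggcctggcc
Zfp423: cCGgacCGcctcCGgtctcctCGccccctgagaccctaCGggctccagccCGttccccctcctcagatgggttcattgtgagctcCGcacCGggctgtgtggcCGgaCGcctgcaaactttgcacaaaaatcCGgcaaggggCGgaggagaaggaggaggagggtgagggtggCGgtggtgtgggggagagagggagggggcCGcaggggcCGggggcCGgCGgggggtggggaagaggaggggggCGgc
Adipoq: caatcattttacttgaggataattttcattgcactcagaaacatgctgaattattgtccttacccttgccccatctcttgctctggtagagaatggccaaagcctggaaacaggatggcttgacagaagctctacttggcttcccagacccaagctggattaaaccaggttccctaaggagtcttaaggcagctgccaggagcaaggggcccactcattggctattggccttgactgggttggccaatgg
Cd36: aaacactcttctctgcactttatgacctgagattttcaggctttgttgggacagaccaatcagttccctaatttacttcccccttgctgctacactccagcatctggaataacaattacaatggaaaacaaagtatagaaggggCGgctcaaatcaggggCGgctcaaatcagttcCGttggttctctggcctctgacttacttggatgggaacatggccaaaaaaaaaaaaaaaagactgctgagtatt
The Cebpa piece holds 22 CpGs and the Zfp423 piece 18, the Adipoq piece none (0) and the Cd36 piece 3. The median over 32851 such pieces was 6. In the same measure the other annotated Zfp423 start (chr8:87804440-87804689) had 6 CpGs, equal to that median, and also no island. The first of the Ebf1 starts had 9 CpGs and the other 14, and the Plin1 piece had 1. The 3 annotated starts of Pparg ran from CpG-dense to CpG-poor, with 38, 12 and 2 CpGs in order along the gene.

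The last of these Pparg starts, inside the gene span (chr6:115421816-115422065, + strand), is shown with matches to the C/EBP-type motif TTGCNNAA in capitals, because C/EBP factors are the textbook activators of Pparg and their RNA was present here.
Pparg: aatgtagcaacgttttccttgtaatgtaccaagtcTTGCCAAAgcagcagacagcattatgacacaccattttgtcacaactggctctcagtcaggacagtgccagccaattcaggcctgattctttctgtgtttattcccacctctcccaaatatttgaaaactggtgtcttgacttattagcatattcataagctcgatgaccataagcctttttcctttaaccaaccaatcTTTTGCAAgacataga
It holds 2 matches, on opposite strands. The motif was searched on both strands, and 9.56% of all 32851 pieces hold at least 1 match. The Plin1 piece also holds 2, the piece before the higher-numbered Zfp423 start holds 1, and the other pieces hold none (0).

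Levels were compared between genes as RPKM, the authors' read count scaled to coding length and to the library total. Zfp423 stood at 5.56 ± 1.24 RPKM (SD, n = 6 libraries), Ebf1 at 4.99 ± 1.71, Cebpd at 4.09 ± 0.894 and Cebpa at 2.91 ± 0.907. Neighbours in this order overlapped in range, so that their order is not resolved. Below them came Fabp4 at 0.276 ± 0.249, Pparg at 0.0951 ± 0.0365, Cd36 at 0.033 ± 0.0637, Lpl at 0.0145 ± 0.00919, Adipoq at 0.0124 ± 0.0113 and Plin1 at 0.00251 ± 0.00615. The ranges of Fabp4 and Pparg overlapped, as did those of Pparg and Cd36 and those of Cd36, Lpl, Adipoq and Plin1. A gap separated the groups: the lowest value of Cebpa was 1.98 RPKM and the highest of Fabp4 was 0.765. Thus 4 of the 10 genes had a mean of 1 RPKM or more, against 46.4% of all rows of the table. In bulk RNA, fewer cells with a transcript and less of it per cell cannot be told apart.

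**Figure D1:**
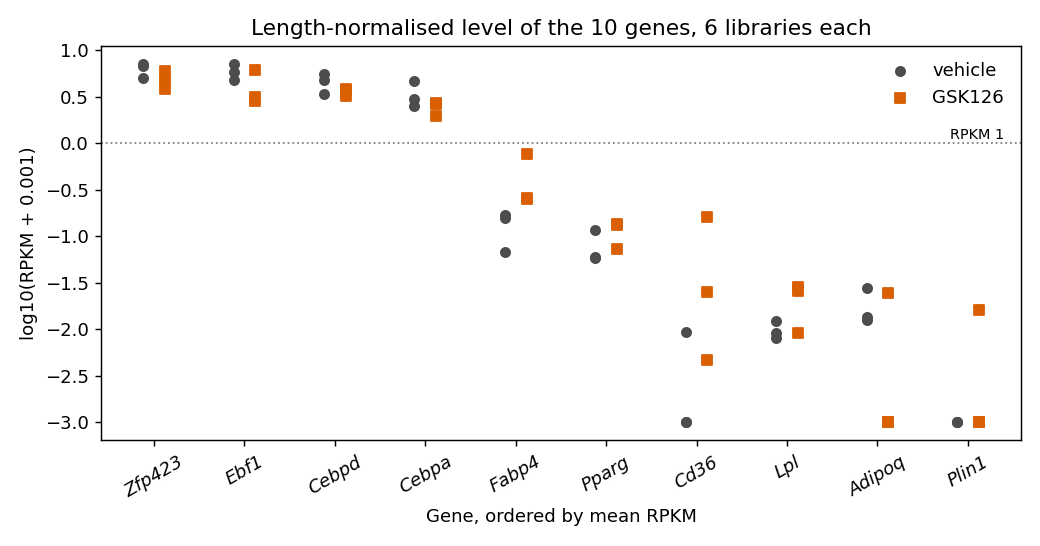
RPKM of the 10 genes on a log10 scale after adding 0.001, so that libraries at 0 lie at -3, with 1 point per library (circles vehicle, squares GSK126) and a dotted line at RPKM 1. The 4 upstream factors lie between 1.98 and 7.14 RPKM, and the other 6 genes lie below 1 in every library.

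Library totals ran from 97291878 to 111537936 counts, and every count was even, so each sequenced fragment was taken to be counted as 2 read ends. At this depth a count of 0 allows up to 3 fragments, or 0.052 to 0.0636 CPM (counts scaled to the library total, here after TMM normalisation, which corrects for library composition). The fit across all genes (edgeR's quasi-likelihood test, Benjamini-Hochberg adjusted p below 0.05) tested 14344 genes with day as a covariate, so the spread is how the difference between the treatments varies over 3 pairs of libraries. Nothing in the labels says that the pairs came from separate cultures. A p-value here thus reflects how the difference varied between the 3 pairs. That spread may be technical, and it also holds any change of the difference between the days. It called 1.28% of genes for GSK126, 1.01% higher and 0.272% lower. Of the 10 genes 6 passed the filter on low counts and were tested, and 0 of the 6 was called, with 4 at an unadjusted p below 0.05, a level that 19.6% of all tested genes reached. The counts of Lpl, Adipoq, Plin1 and Cd36 were too low to test. The markers of the line were present: all 12 osteoblast genes listed were tested, and 4 of them rose with GSK126 (Ibsp, Bglap, Pth1r and Ifitm5). Without day 6 or without day 10, 0 of the 12 passed, against 6 of the 12 without day 3, and DESeq2 called 9. The number of all genes called higher moved too. It was 145 of 14344 in the main fit, 18 of 14475 without day 6 and 4 of 14516 without day 10. Without day 3 it was 202 of 14340, and with DESeq2 688 of 14344. The 6 tested adipocyte fate genes had a median log2 difference of -0.34, the 12 osteoblast genes 0.96, and all genes tested -0.00076.

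The committing factors came first in level. Zfp423 (chr8:87661810-87959595, mm10) had 40.2, 44.2 and 31.0 CPM in vehicle on days 3, 6 and 10, and 35.7, 29.8 and 24.5 CPM with GSK126. It was lower in the GSK126 library on every day, yet the treatments overlapped because the day 3 value with GSK126 exceeded the day 10 value of vehicle. Its log2 difference was -0.36 (SE 0.10, n = 3 pairs, edgeR adjusted p = 0.137). Counting error alone did not cover the difference on any day: the log2 ratio of day 6, -0.57, had an exact binomial 95% interval from -0.66 to -0.47, and the smallest, on day 3, was -0.17 with an interval from -0.26 to -0.09.

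Ebf1 (chr11:44618134-45005172) had 19.6, 16.7 and 13.4 CPM in vehicle and 16.8, 9.07 and 8.42 CPM with GSK126. The GSK126 libraries of days 6 and 10 lay below all vehicle libraries, and that of day 3 lay among them. The log2 difference was -0.59 (SE 0.15, 1.5-fold lower, edgeR adjusted p = 0.119), the lowest adjusted p among the 6 tested genes. DESeq2, the alternative count test, called it lower (adjusted p = 0.0133). Ebf1 was the 1 gene of the 6 whose call changed with the tool.

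Cebpa (chr7:35119293-35121931), a gene without introns, had 8.21, 10.1 and 15.3 CPM in vehicle and 6.35, 9.11 and 9.01 CPM with GSK126. The vehicle level was highest on day 10, while with GSK126 the values of days 6 and 10 were nearly equal. The log2 ratios were -0.37, -0.15 and -0.76 on days 3, 6 and 10, with the interval of day 6 reaching 0.04. The averaged log2 difference was -0.43 (SE 0.15, edgeR adjusted p = 0.204).

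Cebpd (chr16:15887286-15889545), induced early in adipogenesis and also by glucocorticoid and inflammatory signals, had 15.3, 9.84 and 13.6 CPM in vehicle and 10.2, 9.35 and 11.2 CPM with GSK126. Its largest gap was on day 3, with a log2 ratio of -0.58, and its smallest on day 6, -0.07. The averaged log2 difference was -0.31 (SE 0.13, edgeR adjusted p = 0.259). All 4 upstream factors were thus lower with GSK126 on each of the 3 days, as were 22.7% of all tested genes, and the sign of each fitted difference was negative under all 10 alternatives.

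Pparg (chr6:115361221-115490401), the master regulator of the fat cell, was close to the floor of detection. It counted 16, 30 and 14 in vehicle libraries, against 20, 34 and 32 in GSK126 libraries, or 0.139, 0.292 and 0.145 CPM against 0.176, 0.343 and 0.339 CPM. The treatments overlapped, and the only wide gap was on day 10. There the ratio rested on 16 fragments against 7, with a log2 value of 1.23 and an interval from -0.13 to 2.75. The fitted log2 difference was 0.58 (SE 0.38, edgeR adjusted p = 0.471).

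**Figure D2:**
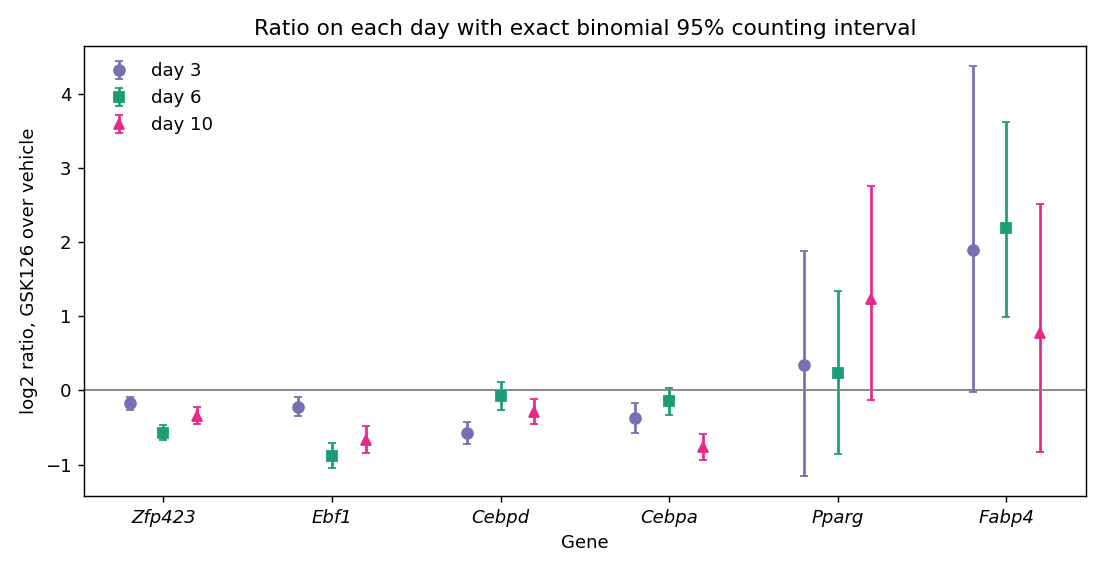
log2 ratio of GSK126 over vehicle on days 3, 6 and 10 (circles, squares, triangles) for the 6 tested genes, each from 1 pair of libraries, with the exact binomial 95% interval of the fragment counts, which covers counting error only. The 4 upstream factors lie below 0 on each day with narrow intervals, whereas Pparg and Fabp4 lie above 0 with wide ones.

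Among the lipid-handling genes, Fabp4 (chr3:10204343-10208576) counted 6, 14 and 12 in the vehicle libraries of days 3, 6 and 10, against 22, 62 and 20 in those of GSK126. All 3 GSK126 libraries exceeded all vehicle libraries in CPM, a pattern that 6.27% of tested genes showed. The highest value, 0.626 CPM with GSK126 on day 6, came from 31 fragments against 7 in vehicle, a ratio of 4.59 with an interval from 1.98 to 12.3. On the other days the interval included 1: the ratio was 3.72 on day 3 (0.981 to 20.7) and 1.71 on day 10 (0.563 to 5.73). The fitted log2 difference was 1.63 (SE 0.44, edgeR adjusted p = 0.136).

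Cd36 (chr5:17781690-17888959) went from 0 on days 3 and 6 to 4 counts on day 10 in vehicle, and through 2, 12 and 78 counts in the GSK126 libraries. The 78 counts of day 10, taken after the inhibitor had been removed, were the highest of any library and amounted to 0.162 RPKM. On that day the ratio was 20.0 from 39 fragments against 2, with an interval from 5.18 to 171. Cd36 did not pass the filter. With no filter its log2 difference for GSK126 was 4.53 (edgeR adjusted p = 0.0642), a value that depends on the prior count because 2 vehicle libraries were at 0.

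Lpl (chr8:68880555-68906932) counted 4, 6 and 4 in vehicle libraries, against 14, 14 and 4 in GSK126 libraries. Over the 3 days this was 16 fragments against 7, a ratio of 2.34 with an interval from 0.912 to 6.73. Adipoq (chr16:23146536-23157968) counted 2, 2 and 4 in vehicle libraries, against 4, 0 and 0 in GSK126 libraries. Plin1 (chr7:79721164-79732776) had 0 counts in 5 libraries and 4 in the GSK126 library of day 3. For these last genes no difference between the treatments was detectable at this depth.

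**Figure D3:**
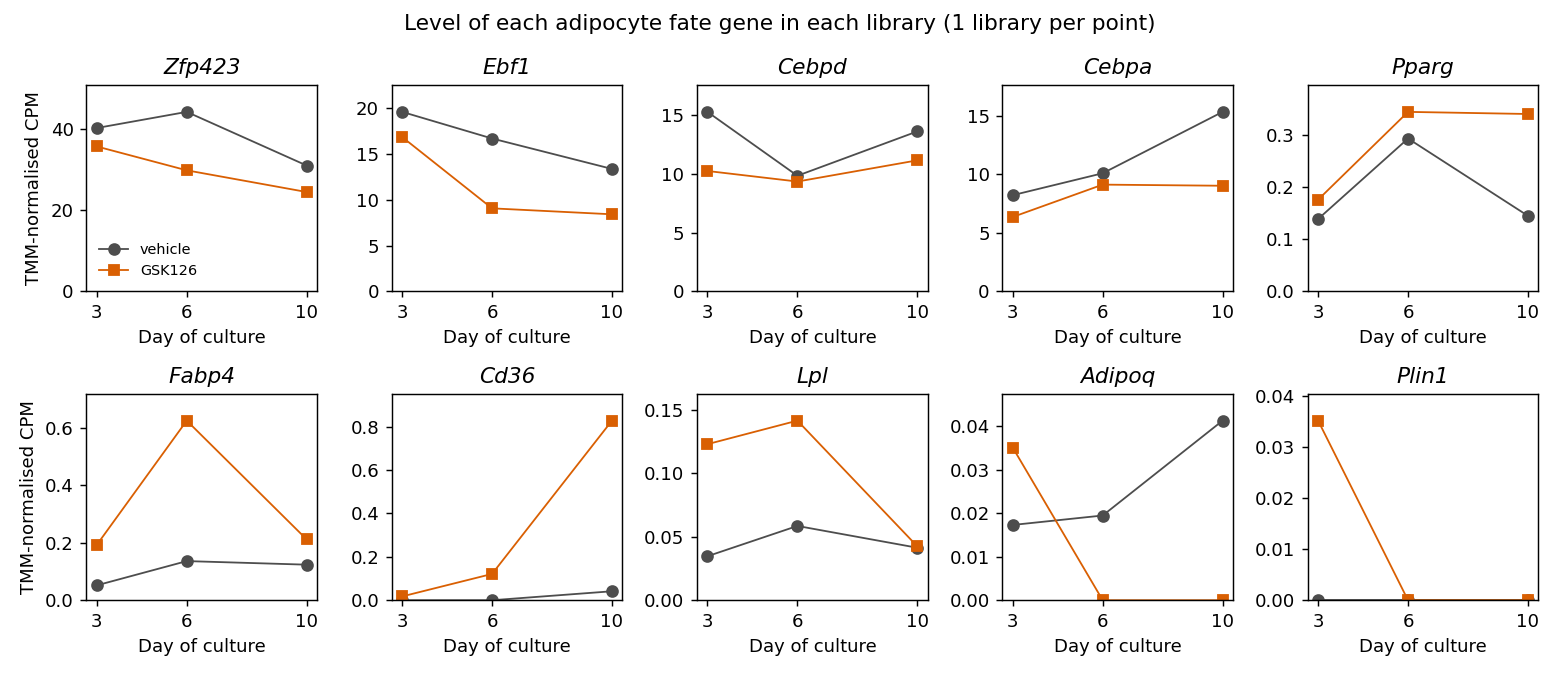
TMM-normalised CPM of each gene by day of culture, with 1 library per point (circles vehicle, squares GSK126), lines joining the days, and a separate vertical axis from 0 for each gene. Zfp423 reaches 44.2 CPM and Plin1 at most 0.0351 CPM. Cd36 stands out in the GSK126 library of day 10 at 0.827 CPM.

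Cd36, Fabp4 and Lpl are also expressed by macrophages and endothelial cells. Among 8 macrophage and blood cell markers 4 were tested and 0 passed, and their summed level was 11.8 to 23.8 CPM in vehicle and 17.0 to 23.8 CPM with GSK126. Most of it was Lyz2, while Emr1 was at 0 in every library and Ptprc at 2 to 6 counts. Among 8 endothelial markers 3 were tested and 0 passed, with summed levels of 70.2 to 78.4 CPM in vehicle and 23.6 to 49.7 CPM with GSK126. Nearly all of this was Cd34, which stromal cells also express, and Kdr was at 0 throughout and Cdh5 at 0 to 2 counts. Among 6 muscle markers 2 were tested and 0 passed, with 2.71 to 4.99 CPM in vehicle and 4.52 to 5.65 CPM with GSK126.

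Culture time was the next comparison, read as day 10 against day 3 over both treatments, where 26.6% of genes were called (14.1% higher and 12.5% lower). Of the 6 tested members 1 rose and 2 fell. Cebpa rose by 0.71 on the log2 scale (SE 0.18, edgeR adjusted p = 0.0394). Ebf1 fell by 0.79 (SE 0.18, edgeR adjusted p = 0.0318) and Zfp423 fell by 0.46 (SE 0.12, edgeR adjusted p = 0.0427). Cebpd stood at -0.03 (SE 0.16), Pparg at 0.56 (SE 0.48) and Fabp4 at 0.61 (SE 0.56). The Cebpa call depended on the scaling: by library size rather than TMM, all tested genes had a median of -0.11 and Cebpa no longer passed (adjusted p = 0.0609). Between days 3 and 6 0 of the 6 was called, against 0.753% of all genes (0.516% higher and 0.237% lower), and the values nearest to a call were Ebf1 at -0.56 (edgeR adjusted p = 0.139) and Fabp4 at 1.56 (edgeR adjusted p = 0.149).

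Whether the difference changed after removal was read from a term for GSK126 on day 10 against days 3 and 6. No culture was kept on the inhibitor to day 10, so removal and culture time cannot be told apart. The term called 0% of the 14344 genes by edgeR, with 1006 at an unadjusted p below 0.05, and DESeq2 called 4. Among the members it stood at -0.51 for Cebpa (SE 0.22, edgeR adjusted p = 0.719), 0.94 for Pparg (SE 0.75, edgeR adjusted p = 0.796) and -1.29 for Fabp4 (SE 0.83, edgeR adjusted p = 0.772).

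Genes of the wider adipocyte programme were read in 6 lists. Among 15 tested transcription factors and cofactors of adipogenesis 1 rose with GSK126, 0 fell and 14 did not pass, with a median log2 difference of 0.21. The 1 was Zfp467, a zinc-finger factor reported in mouse stromal cells to favour fat over bone, which counted 82, 110 and 182 in vehicle libraries, against 282, 306 and 488 in GSK126 libraries. All GSK126 libraries exceeded all vehicle libraries, and the log2 difference was 1.59 (SE 0.17, 3.01-fold, edgeR adjusted p = 0.0291). It no longer passed when any of the days was left out (adjusted p = 0.0512 to 0.136). Among 14 tested inhibitors of adipogenesis 0 rose, 1 fell and 13 did not pass, with a median of 0.09. Nr2f2, an orphan nuclear receptor that holds back adipocyte differentiation, counted 6182, 3980 and 2694 in vehicle libraries, against 4058, 1786 and 1392 in GSK126 libraries. It fell by 0.87 (SE 0.12, edgeR adjusted p = 0.0434), and it did not pass without day 6 (adjusted p = 0.145) or without day 10 (adjusted p = 0.18). Zfp521, an antagonist of ZFP423 and EBF1 that was singled out here after its values were seen, stood at -0.61 (SE 0.13, edgeR adjusted p = 0.0869). Klf2, singled out in the same way, stood at 1.16 (SE 0.27, edgeR adjusted p = 0.107). Of the 14 tested inhibitors 9 had a positive difference and 5 a negative one.

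Lipid genes outside the 10 were present, and 1 of those tested in the next 2 lists passed. Among 15 tested genes of lipid droplets, storage and lipolysis 0 were called, with a median of -0.05. Plin2, the perilipin of most cell types, had 3718 to 5500 counts in the 6 libraries, against 0 to 4 for Plin1. Among 13 tested genes of fatty acid uptake and PPAR targets 0 rose, 1 fell and 12 did not pass, with a median of -0.17. The 1 was Pdk4, a PPAR target that restrains pyruvate dehydrogenase, at 9350, 5280 and 6300 counts in vehicle libraries, against 3834, 1572 and 2230 in GSK126 libraries. Its groups did not overlap, as was so for 5.94% of tested genes in this direction, and it fell by 1.47 (SE 0.10, edgeR adjusted p = 0.0145). Without day 10 it stood at -1.48 and did not pass (adjusted p = 0.0747). DESeq2 called 1 lipid droplet gene higher, and 1 uptake gene higher and 2 lower. Among 9 tested adipokines and receptors and 11 tested progenitor genes 0 were called, with medians of 0.07 and -0.24. The hormone genes Retn and Lep and the adipsin gene Cfd were at 0 to 10 counts.

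**Figure D4:**
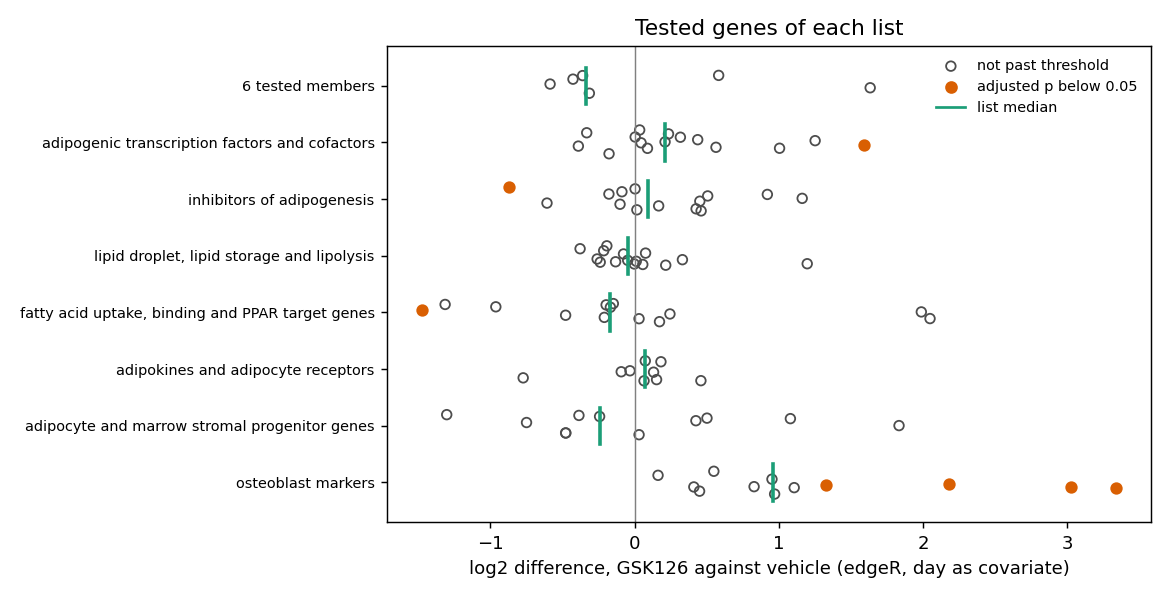
log2 difference between GSK126 and vehicle for the tested genes of each list, 1 point per gene, with filled points for an adjusted p below 0.05 and a bar for the list median. The 6 tested adipocyte fate genes have a median of -0.34 and the osteoblast markers 0.96.

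Over culture time each of the 6 lists held genes that passed the test, as did 26.6% of all tested genes (14.1% higher and 12.5% lower). The lists held 15 tested transcription factors, 14 inhibitors, 15 lipid droplet genes, 13 uptake and PPAR target genes, 9 adipokines and receptors and 11 progenitor genes. Whether any list differed from that share was not tested. Among the transcription factors Zfp467 rose by 1.22 (edgeR adjusted p = 0.0176) and Ppargc1b, Rxra, the partner of PPARγ, and Med1 fell, by 0.81, 0.32 and 0.55 (edgeR adjusted p = 0.027, 0.0414 and 0.0169). Among the inhibitors Wnt10b, a Wnt ligand that blocks adipogenesis, rose by 1.28, and Gata3, Hes1, Sirt1, Insig1 and Nr2f2 fell, by 0.43 to 1.72. Of the lipid droplet genes 3 rose and 0 fell: Gpd1, which makes the glycerol backbone of triglyceride, by 1.68, Plin4 by 0.74 and Plin3 by 0.40. With library size in place of TMM, 1 lipid droplet gene rose and 1 fell. Of the uptake and PPAR target genes 3 rose and 1 fell. Fabp3, Slc27a1 and Angptl4 rose, by 2.53, 2.20 and 6.82. Angptl4 had 0 counts on day 3, so the size of its rise depends on the prior count. With library size in place of TMM, 3 uptake and PPAR target genes rose and 3 fell. The chemerin gene Rarres2 rose by 3.56 and Nampt by 0.34, while Irs2 fell by 0.75. Of the progenitor genes Pi16, Fap and Ly6a rose by 3.02, 2.49 and 1.37, and Pdgfrb and Kitl fell by 0.61 and 1.40.

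Genes with a pattern like that of each member were looked for by Pearson's r of log2 CPM over the 6 libraries, among about 11018 genes, as a description without a test. Libraries share the course of culture, and many genes follow it: 620 genes had r of 0.9 or more with Ebf1, 468 with Zfp423, 332 with Cebpa and 16 with Cebpd. The 3 most like Cebpa were Mzt2, Atpif1 and Plin3, a perilipin (r = 0.99 each). Those most like Ebf1 were Inpp5f, C230081A13Rik and Rgma, those most like Zfp423 were Pskh1, Pi4kb and Fam53c, and those most like Cebpd were Zc3h12a, Snapc1 and Polr2c, with r from 0.97 to 1.00. Pparg was most like Mesdc2, Pcyt1a and Ttc37 and Fabp4 most like Pkia, Epdr1 and Angel1 (r = 0.98 to 0.99), though with few fragments behind both.

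Chromatin was read from the authors' island lists, which held 34498 H3K27me3 islands for vehicle and 24947 for GSK126, with a median ChIP to input fold of 2.48 and 2.04 and a median length of 3400 and 5600 bases. Summed over the list, islands covered 147889400 bases for vehicle and 166748800 for GSK126. Fold here is the authors' own value per island. It is relative to the input of the same treatment and to the library totals, so a change of the mark across the whole genome need not show in it. With 1 library pair per treatment there is no test. An island met the gene span of 3 of the 10 genes in each list, against 17.1% of all rows in vehicle and 14.8% with GSK126, and the 3 genes were the same: Cd36, Lpl and Adipoq. With islands of a fold of at least 2 alone, 2 of the 10 genes were met in each list, Cd36 and Adipoq in vehicle and Cd36 and Lpl with GSK126, against 15.1% and 10.5% of rows. Within 2 kb of a start site, 2 of the 7 genes with a RefSeq promoter had a vehicle island (Cd36 and Adipoq) and 1 a GSK126 island (Cd36), against 13.2% and 10.5% of rows with such an entry. The nearest GSK126 island to Cebpd lay 1686 bases from its span and had a fold of 1.69.

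Cd36 had 6 vehicle islands, covering 16.3% of its span, with folds from 2.19 to 4.22, and 6 GSK126 islands, covering 34.5%, with folds from 1.5 to 2.79. The strongest vehicle island (chr5:17809201-17815600) had 88 ChIP reads and 35 input reads, and the GSK126 island across it (chr5:17806401-17816000) had 153 and 108 and a fold of 2.36. The promoter piece printed above was met in part by a vehicle island that stopped short of the start site (chr5:17836001-17838000, fold 2.43), and the GSK126 island there covered the start site (chr5:17832201-17839000, fold 1.5). The median fold over the gene was 2.71 in vehicle and 2.01 with GSK126, beside list medians of 2.48 and 2.04. Cd36 was the member with the most islands, over a span of 107270 bases. Of rows with a span within 1.5 times of it, 25.6% had a vehicle island and 24.1% a GSK126 island. Its RNA count reached 78 with GSK126 on day 10, and a link between its islands and its RNA was not tested.

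Adipoq had an island over its start in vehicle (chr16:23145801-23149200, 48 ChIP and 28 input reads, fold 2.88) and another near its end (chr16:23155601-23157800, fold 1.88). With GSK126 an island near the end remained listed (chr16:23153401-23157400, fold 1.83), none lay over the start, and another lay 5336 bases outside the span (fold 3.12). Its RNA in GSK126 was 4, 0 and 0 counts. Lpl had 1 vehicle island (chr8:68888401-68893200, fold 1.97) and 2 GSK126 islands beyond it. The first adjoined the vehicle island (chr8:68893201-68896600, fold 3.14) and the second lay further on (chr8:68898001-68902000, fold 2.73). The lists thus placed more covered sequence over Lpl with GSK126 (28.1% of the span against 18.2%). The whole GSK126 list also covered more sequence than the vehicle list, and a gain of the mark at Lpl was not tested.

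**Figure D5:**
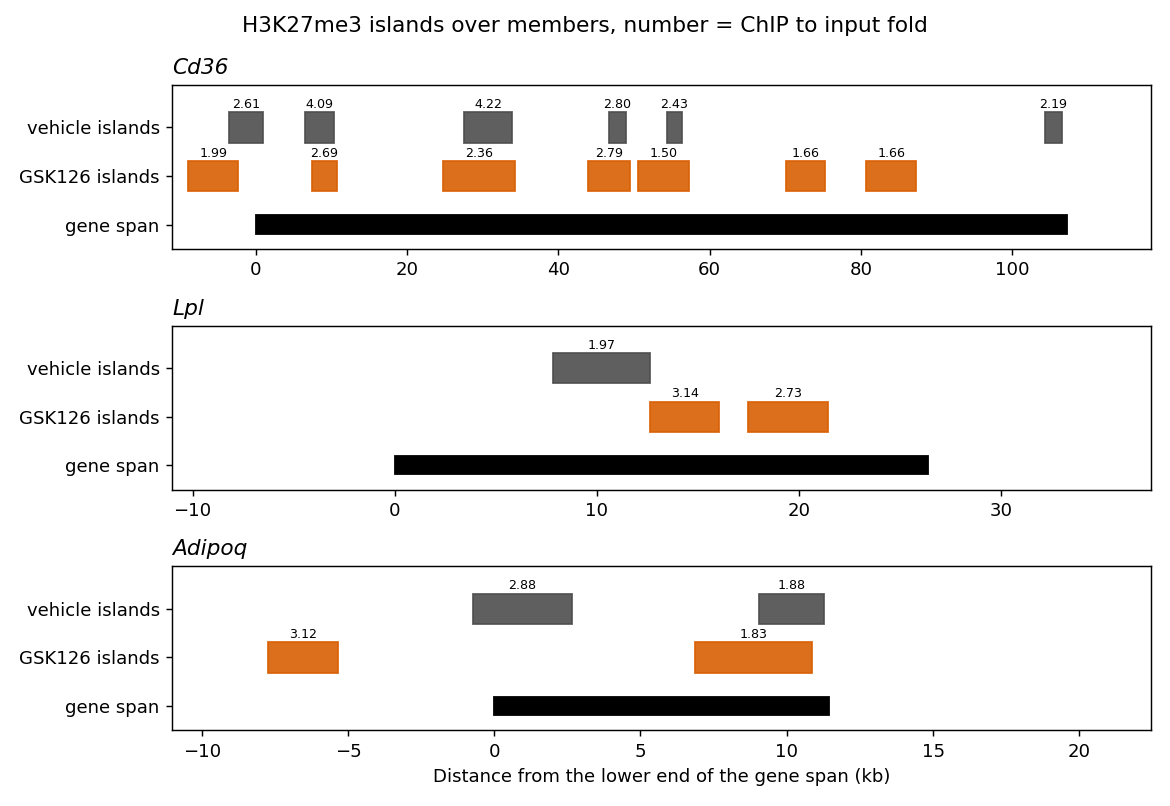
H3K27me3 islands over and within 10 kb of Cd36, Lpl and Adipoq, drawn to scale as distance in kb from the lower-numbered end of the gene span, with vehicle islands in grey, GSK126 islands in orange and the ChIP to input fold above each. Cd36 has folds up to 4.22 in vehicle and 2.79 with GSK126, and the island over the low end of Adipoq is listed in vehicle alone.

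Pparg, Cebpa, Cebpd, Fabp4, Plin1, Zfp423 and Ebf1 had no island over their span in either list. Zfp423 and Ebf1 are long, and of rows with a span within 1.5 times of theirs 34% and 40.2% had a vehicle island. The nearest vehicle island lay 10006 bases from Zfp423, 17629 from Ebf1, 73270 from Cebpa and 101600 from Pparg. Island density differed between chromosomes, with 8.18% of rows on chromosome 7, which holds Cebpa and Plin1, and 29.5% on chromosome 6, which holds Pparg, meeting a vehicle island. The part of this in the absence of islands was not tested. The 3 genes with an island were among the 6 with a mean below 1 RPKM, of which Plin1, Fabp4 and Pparg had no island. Of the 4 genes above 1 RPKM 0 had one, against 17.1% of all rows in vehicle and 14.8% with GSK126. With so few genes these counts cannot show a link between islands and RNA level, which was not tested.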

How the data were processed

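RNA (TruSeq v2 mRNA libraries, per the labels' protocols) and H3K27me3 ChIP DNA were sequenced by the authors. Build mm10, HTSeq 0.5.3p9, TopHat2 2.0.6, SICER 1.1, BWA 0.5.9 and CASAVA 1.9 are listed in the submitters' processing notes. Counting mode and SICER settings: not given in the sources used here. Gene counts, as deposited, are whole, unnormalised and even. The deposited RPKM values equal count over coding length and 1 total per library. Each line of the authors' island lists holds the reads (counts) of ChIP and of input, their ratio (fold) and a p-value. Islands were called by the authors once per treatment.

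Counts were fitted with edgeR 4.0.16 in R 4.3.3 (TMM, filterByExpr on treatment, quasi-likelihood F test, day and treatment additive, 2 residual degrees of freedom). SE is the log2 difference divided by the square root of F. Alternatives were DESeq2 1.42.0, limma-voom (limma 3.58.1), library size scaling, no filter, halved counts, no Rn45s, no day term and each day left out. The fits were tested on simulated data. Ratios by day used exact binomial 95% intervals on fragments. Islands were matched to gene spans by at least 1 base. Promoters are RefSeq, GRCm38.p6 (the mm10 assembly). Genes of the 6 lists were named if called for GSK126 or day 10, apart from an item that is not reported here. The members and lists were chosen with earlier results of these data known.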

Additional observations from a re-analysis of the deposited data

How the results depend on the processing

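For GSK126, the 6 tested adipocyte fate genes kept their sign under all 10 alternatives and none passed except Ebf1 with DESeq2 (-0.59). With a day left out, Zfp423 lay between -0.45 and -0.26, Ebf1 between -0.77 and -0.44, Cebpa between -0.57 and -0.26, Cebpd between -0.44 and -0.18, Pparg between 0.28 and 0.79 and Fabp4 between 1.27 and 2.06. For day 10, Cebpa did not pass with library size alone (0.62), Cebpd stood at 0.0045 without day 6, and Cd36, tested only with no filter, passed (5.51, adjusted p = 0.0205). The Cd36 value rested on the GSK126 library of day 10, with 78 counts against 4 in vehicle, and its size depends on the prior count. The removal term changed sign with library size alone for Cebpd (-0.025) and Zfp423 (-0.035). The cause was not tested.

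Counts of called genes moved more. For GSK126, 145 genes were higher and 39 lower. DESeq2 called 688 and 635, limma-voom 59 lower, no filter 63 lower, and a fit with no day term 0 and 0. Leaving out a day gave 4 to 202 higher and 0 to 106 lower. For day 6, DESeq2 called 984 higher and 729 lower against 74 and 34, library size alone 74 lower, no filter 52 lower and leaving out day 10 19 lower. With library size alone 50.7% of the day 6 calls were higher, against 68.5%, and 35.9% of the day 10 calls, against 53.1%. The removal term called 1 higher and 3 lower with DESeq2. With a window of 2 kb around start sites, an island met 1 of 7 genes in the GSK126 list. The labels give no replicate numbers to use as a block, and the fit already pairs the libraries by day. Genes below about 10 counts are limited by depth.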
